A study of Mus musculus with 6 samples.

Results

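Near-constitutive exons are exons that nearly every transcript of a gene keeps. Here they were exons of over 30 and under 300 nt in the authors' table of skipped exons, selected on their measured inclusion: pooled inclusion had to reach 90%, and the mean number of reads over the 6 libraries had to be 20 or more. In 1195 of the events found, 11 of them among the calls described later, at least 1 library had under 20 reads. Pooled inclusion is the share of inclusion reads over all 6 libraries, after inclusion and skipping reads were each divided by the effective length of their form. The rule found 29217 of the 43465 listed events, and 37725 of the listed events had enough reads. An event is 1 exon with 1 pair of flanking splice sites, so an exon can appear more than once, and the 29217 events held 24682 exons of 8135 genes. For comparison, 3500 events of the same lengths and read minimum lay between 10% and 90%, and 2596 lay at or under 10%.

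Intestinal crypt cells of C57BL/6 mice aged 60 days were measured by RNA-seq of polyA RNA in 3 WT and 3 PTBP1_KO samples. WT mice were Ptbp1f/f without Cre, and PTBP1_KO mice were Ptbp1f/f;Vil-creER+/-, in which villin regulatory sequence drives a tamoxifen-dependent Cre in the intestinal epithelium. Both groups carried the floxed alleles and both received 100 mg/kg tamoxifen on 2 days. Tissue was collected at 20 h past the last dose, scraped free of villi, treated with EDTA at 2 mM to free the crypts, and filtered at 70 µm. The labels do not state that each sample came from a separate animal, so the authors' p-values measure the spread between these samples, which may be technical.

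The splicing tables set 3 libraries against 3 others, called here the first set and the second set, and the headers do not name the genotypes. A positive difference therefore means higher inclusion in the first set, and no difference is given a direction by genotype. In the authors' deposited gene table, which names the groups, Ptbp1 stood at 230.0 FPKM (a level scaled for transcript length and sequencing depth) in WT and 122.8 FPKM in PTBP1_KO (log2 fold change -0.91, q = 0.0125). Epithelial markers of the labelled cell type were high: 8 of them summed to 5459 FPKM in WT and 5908 FPKM in PTBP1_KO and none was listed at 0. The 10 immune markers summed to 875 and 1043 FPKM, most of it Cd74 at 790 and 898 FPKM. Of the 10, 2 had q under 0.05 in the authors' deposited gene table, both higher in PTBP1_KO. Cd8a stood at 4.30 FPKM in WT and 7.52 FPKM in PTBP1_KO, and Gzma at 54.9 and 101.4 FPKM. The 10 stromal, muscle and endothelial markers summed to 7.12 and 8.06 FPKM. The part of these other cells in the exon results was not tested. In bulk RNA, a change in the number of cells of a type and a change in RNA per cell cannot be told apart.

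Splicing joins exons and removes introns, and a skipped exon leaves with the introns around it, so that the exons on either side meet. Constitutive exons tend to have splice sites that the spliceosome recognises more readily, whereas cassette exons depend more on regulatory proteins. PTBP1 binds pyrimidine-rich RNA such as UCUU and is best known for repressing exons, and loss of PTBP1 is known to release some of them. Skipping an exon whose length is not a multiple of 3 shifts the reading frame, which often places a stop codon early and sends the transcript to nonsense-mediated decay.

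The exons on which the results turn are printed here 5′ to 3′ in transcript direction, as DNA letters from the GENCODE M21 transcripts on GRCm38 (mm10). Capitals mark TCTT, the DNA form of the PTBP1-bound UCUU, searched on the transcript strand only. All 11 exons are annotated as wholly coding. The paired exons of Tpm1 and Relch are shown because each belongs to events at very different inclusion, and the others because they carried large or well-covered differences. The choice beyond the largest differences was made after the values were seen.
Tpm1 exon A, chr9:67031951-67032026, minus strand, 76 nt: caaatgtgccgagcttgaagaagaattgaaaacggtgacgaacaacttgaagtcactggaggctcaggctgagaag
Tpm1 exon B, chr9:67032466-67032541, minus strand, 76 nt: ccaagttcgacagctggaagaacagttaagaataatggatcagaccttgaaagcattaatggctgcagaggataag
Relch exon A, chr1:105740435-105740517, plus strand, 83 nt: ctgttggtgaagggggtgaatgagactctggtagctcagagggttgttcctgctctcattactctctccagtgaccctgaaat
Relch exon B, chr1:105741013-105741095, plus strand, 83 nt: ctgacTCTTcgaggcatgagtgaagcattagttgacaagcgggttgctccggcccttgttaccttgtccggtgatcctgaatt
Ptbp1, chr10:79862014-79862047, plus strand, 34 nt: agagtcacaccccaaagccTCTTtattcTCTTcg
Magohb, chr6:131289389-131289447, minus strand, 59 nt: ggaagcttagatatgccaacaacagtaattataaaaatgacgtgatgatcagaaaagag
Fam135a, chr1:24049130-24049207, minus strand, 78 nt: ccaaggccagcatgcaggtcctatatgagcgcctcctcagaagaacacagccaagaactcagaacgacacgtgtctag
Phkg2, chr7:127577975-127578029, plus strand, 55 nt: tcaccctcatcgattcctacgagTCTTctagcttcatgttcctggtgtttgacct
Picalm, chr7:90182219-90182368, plus strand, 150 nt: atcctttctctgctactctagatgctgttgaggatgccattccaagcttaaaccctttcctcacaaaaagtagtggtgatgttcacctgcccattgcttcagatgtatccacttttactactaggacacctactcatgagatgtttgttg
Actn4, chr7:28911490-28911575, minus strand, 86 nt: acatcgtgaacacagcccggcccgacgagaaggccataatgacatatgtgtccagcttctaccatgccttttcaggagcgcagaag
Eml4, chr17:83428216-83428248, plus strand, 33 nt: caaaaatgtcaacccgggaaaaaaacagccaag
The Ptbp1 exon held TCTT at 2 places within 34 nt, the Phkg2 exon and Relch exon B at 1 place each, and the other 8 exons at none. Among all unique exons with enough reads, of any length, 39.1% held at least 1 TCTT.

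Most of these exons were skipped by a trace of the transcripts. The rule fixed their inclusion, so the following values are a description. The median pooled inclusion was 99.6%, and 20295 events (69.5%) lay at 99% or above. Every listed event had at least 1 skipping read, so an exon with no skipping read in these libraries is not in the table. Of the near-constitutive events, 24.2% had exactly 1 skipping read over 6 libraries, and the median was 3. Events had a median of 292 reads per library, from 20 to 179464. In each library, 27454208 to 33571229 reads fell on these events, and 0.190% to 0.222% of them were skipping reads. The inclusion level of an event ranged over the 6 libraries by a median of 1.63 percentage points, and by up to 8.55 points in 90% of events. Just inside the threshold lay exons of Exoc3l4 at 90%, Ovgp1 at 90.01% and Setd4 at 90.02%, and just outside lay exons of Mettl5 and Tnfsf13b, both at 89.99%.

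**Figure D1:**
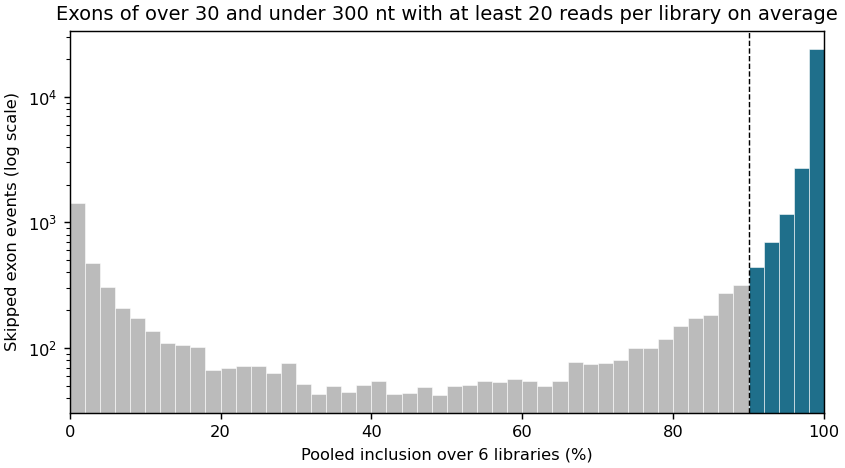
Number of skipped exon events (log scale) against pooled inclusion over 6 libraries in percent, for exons of over 30 and under 300 nt with enough reads. Events pile up at the right edge, where 20295 events lie at 99% or above.

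Near-constitutive exons differed from exons of lower inclusion in coding content. Of unique near-constitutive exons, 89.7% were wholly coding, against 80.1% of all exons with enough reads, 56.6% of those between 10% and 90%, and 23.0% of those at or under 10%. Their lengths were a multiple of 3 in 38.1% of cases, against 39.9% of all exons. The share was 47.3% between 10% and 90% and 42.8% at or under 10%. Among wholly coding exons alone, 38.6% of near-constitutive exons and 41.5% of all exons were multiples of 3. The gap to the other classes was wider there, with 57.6% between 10% and 90% and 79.3% at or under 10%. Median length was 115 nt in near-constitutive exons, 108 nt in exons between 10% and 90%, and 100 nt in those at or under 10%. Median GC content was 50%, 50% and 49.5% in the same order. The rule bounds length, so these lengths are a description. Over all exons the medians were 115 nt and 50%, but 24682 of those 31346 exons were themselves near-constitutive. TCTT occurred in 37.3% of near-constitutive exons, CTCTCT in 3.90% and TTTTTT in 1.76%. All exons, which have no length limit, held them in 39.1%, 4.91% and 2.25% of cases. In the classes of the same lengths, the shares were 37.2%, 4.36% and 2.10% between 10% and 90%. They were 41.9%, 4.86% and 1.85% at or under 10%, so TCTT was as frequent in near-constitutive exons as in the class next to them. Each motif was searched on the transcript strand within the exon, and introns were not searched.

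The skipping itself was rarely an annotated transcript form. The junction that skips the exon was in GENCODE M21 for 13.4% of near-constitutive events, against 79.2% of events between 10% and 90% and 98.9% of events at or under 10%. Among near-constitutive events the 3923 with an annotated skipping junction had a median skipping level of 1.55%, and the 25294 without one had 0.365%. An FDR under 0.05 in the authors' deposited table was reached by 5.61% of the first and 1.12% of the second.

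Few near-constitutive exons differed between the sets of libraries. An event was called when the authors' deposited table gave an FDR under 0.05 and an absolute inclusion level difference of at least 0.1, on a scale from -1 to 1. By that rule 72 of 29217 near-constitutive events (0.246%) in 70 genes were called, against 632 of 37725 events with enough reads (1.68%), 447 of 3500 (12.8%) between 10% and 90%, and 26 of 2596 at or under 10%. With no minimum difference, 503 near-constitutive events (1.72%) had an FDR under 0.05 in the authors' deposited table, against 1430 of all events (3.79%). At an unadjusted p under 0.05 in the authors' deposited table the shares were 4.81% and 8.87%. The rule limits how far a difference can go, because with equal reads in every library a difference of 0.1 is out of reach above a pooled inclusion of 95%. The lower share of calls in this class is therefore read as a description and not as a result about the exons.

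Calls lay near the lower edge of the class. In the authors' deposited table, 39 of 444 events between 90% and 92% were called (8.78%), 27 of 705 between 92% and 94% (3.83%), 5 of 1161 between 94% and 96%, 1 of 2702 between 96% and 98%, and none of those above. The single call above 96% was H13, the signal peptide peptidase, at 96.1% pooled inclusion on a mean of 319 reads per library. With another flank, on a mean of 1519 reads, the same H13 exon stood at 14.4% pooled. In that event it was included at 28.2%, 21.5% and 24.7% in the first set and 5.15%, 5.25% and 5.92% in the second. The difference there was 0.193 in the authors' deposited table. None of the 20295 events at 99% or above reached an FDR under 0.05 in the authors' deposited table, and 2 had an unadjusted p under 0.05 by the authors' test. The authors' deposited table listed a p of 1 for 96.9% of these events and for 74.3% of all near-constitutive events. The most included exon with an FDR under 0.05 in the authors' deposited table was in Csrp2, a LIM-domain protein, at 98.9%.

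**Figure D2:**
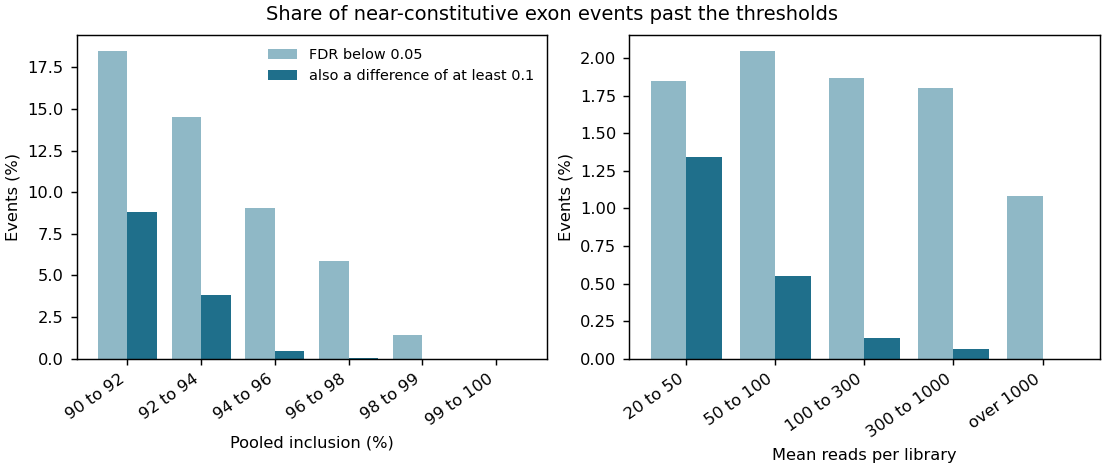
Share of near-constitutive events (percent) with an FDR under 0.05 and share called, by pooled inclusion and by mean reads per library. Calls fall from 8.78% between 90% and 92% to 0 above 98%, and from 1.34% at 20 to 50 reads to 0 above 1000 reads.

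Calls also rested on low coverage. Of the 72 called events, 34 had a mean of 20 to 50 reads per library (1.34% of such events) and none had over 1000, although 59 of the 5451 events over 1000 reads had an FDR under 0.05 in the authors' deposited table. Called events had a median of 14 skipping reads over 6 libraries, from 7 to 305. In 13 of them the first set held no skipping read, and in 16 the second set held none. The 3 libraries of one set all lay above or all below those of the other in 45 of the 72 (62.5%), in 316 of the 503 with an FDR under 0.05 (62.8%), and in 5.2% of all near-constitutive events, against 7.96% of all events with enough reads. Since the calls used the same reads, these shares are a description.

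The called exons were split evenly by sign, with 37 positive (0.127% of the class) and 35 negative differences (0.12%) in the authors' deposited table. Of the 632 called among all events, 418 were positive (1.11% of events) and 214 negative (0.567%). The even split depended on which libraries entered the pooled inclusion. Leaving a first-set library out of the membership rule gave 22 to 24 positive calls of 70 to 78, and leaving out a second-set library gave 42 to 50 positive calls of 67 to 75, because a set with fewer libraries weighs less in the pool. The sign split thus moved with the membership rule. Among the 503 events with an FDR under 0.05 in the authors' deposited table, 268 were positive (0.917%) and 235 negative (0.804%), beside 2.4% and 1.39% of all events.

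**Figure D3:**
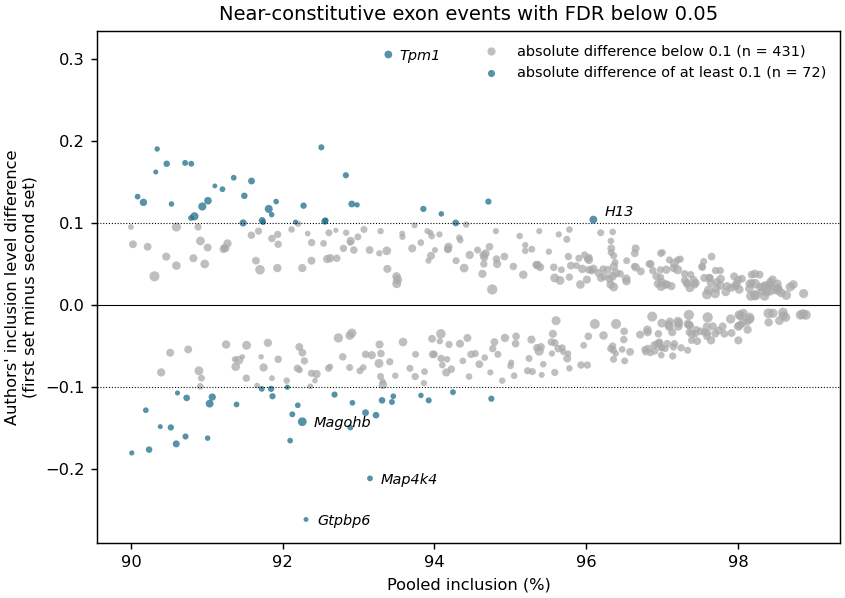
The authors' inclusion level difference, first set minus second set, against pooled inclusion in percent for the 503 near-constitutive events with an FDR under 0.05. Differences narrow towards 0 as pooled inclusion rises, and the point standing apart at 0.305 is Tpm1.

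Tpm1, which encodes tropomyosin 1, an actin filament protein with several pairs of alternative exons, held the largest positive difference. Exon A was included at 97.0%, 97.9% and 96.7% in the first set and at 69.8%, 65.8% and 64.5% in the second, and the sets did not overlap. The authors' deposited table gave a difference of 0.305 with an FDR listed at 0. Reads were uneven, with 560, 427 and 599 in the first set and 68, 63 and 68 in the second, so the pooled value of 93.4% lay near the first set. With the median of the 6 library levels in place of pooled reads, exon A fell outside the class and so was not counted as a call. Its host gene stood at 192.1 FPKM in WT and 120.9 FPKM in PTBP1_KO in the authors' deposited gene table, with q = 0.0125.

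The skipping counted for Tpm1 exon A in that event joins the exons that lie outside the pair and leaves out both A and B. That junction had 11, 6 and 13 reads in the first set and 15, 16 and 18 in the second. The same junction reads serve the event of exon B against skipping of both, so these 2 events are not independent. Exon A appeared again with exon B as one flank, and there its pooled inclusion was 6.01%. In that event exon A was included at 16.4%, 10.9% and 20.3% in the first set and 1.26%, 1.35% and 1.54% in the second, with a difference of 0.145 in the authors' deposited table. Exon B, against skipping of both, was a member at 99.2%, with a difference of -0.004 and an FDR of 1 in the authors' deposited table. With exon A as its flank, exon B stood at 48.1%, 62.5% and 52.7% in the first set and 96.6%, 96.2% and 96.2% in the second, a difference of -0.419 in the authors' deposited table. Both exons thus counted as near-constitutive beside an event in which the same exon was not. The pair is 76 nt each, with identical letters at 43 positions (56.6%).

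Relch, a gene named for its RAB11-binding and LisH domains, had the same layout in 2 exons of 83 nt with 51 identical positions (61.4%). Exon A was included at 100% in all 3 first-set libraries and at 79.6%, 95.6% and 87.1% in the second set. Exon B read 100% in all 3 first-set libraries and 79.6%, 97.1% and 86.4% in the second. The authors' deposited table gave differences of 0.126 and 0.123 for them. These rest on 1 skipping junction that leaves out both exons, so they are not independent. That junction had 7, 1 and 5 reads in the second set and no read in the first. The event of exon A had 78, 71 and 88 reads in the first set and 50, 35 and 58 in the second. The event of exon B had 15, 11 and 25 reads in the first set and 50, 53 and 55 in the second. With its partner as a flank, exon A fell to a pooled 53.5% with a difference of 0.485, and exon B to 25.3% with -0.247, in the authors' deposited table.

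Magohb, which encodes a core protein of the exon junction complex, held the best-covered large negative difference. Its 59-nt exon was included at 82.1%, 86.1% and 86.5% in the first set and 99.1%, 98.3% and 99.8% in the second, from 618 to 1146 reads per library. The difference was -0.142 in the authors' deposited table, with an FDR listed at 0. With another exon as its flank the same exon stood at 98.1% pooled, with a difference of -0.030 in the authors' deposited table, and with a further pair of flanks it stood at 99.6% with a difference listed at 0. A neighbouring 200-nt exon of Magohb, found in a transcript marked for decay and not near-constitutive, was included at 41.2%, 27.2% and 24.2% in the first set and 3.97%, 2.62% and 5.23% in the second, with a difference of 0.269 in the authors' deposited table. With another flank that 200-nt exon stood at 52.5%, 46.9% and 45.1% against 68.4%, 36.7% and 94.96%, and the authors' deposited table gave -0.185 with an FDR of 0.69.

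**Figure D4:**
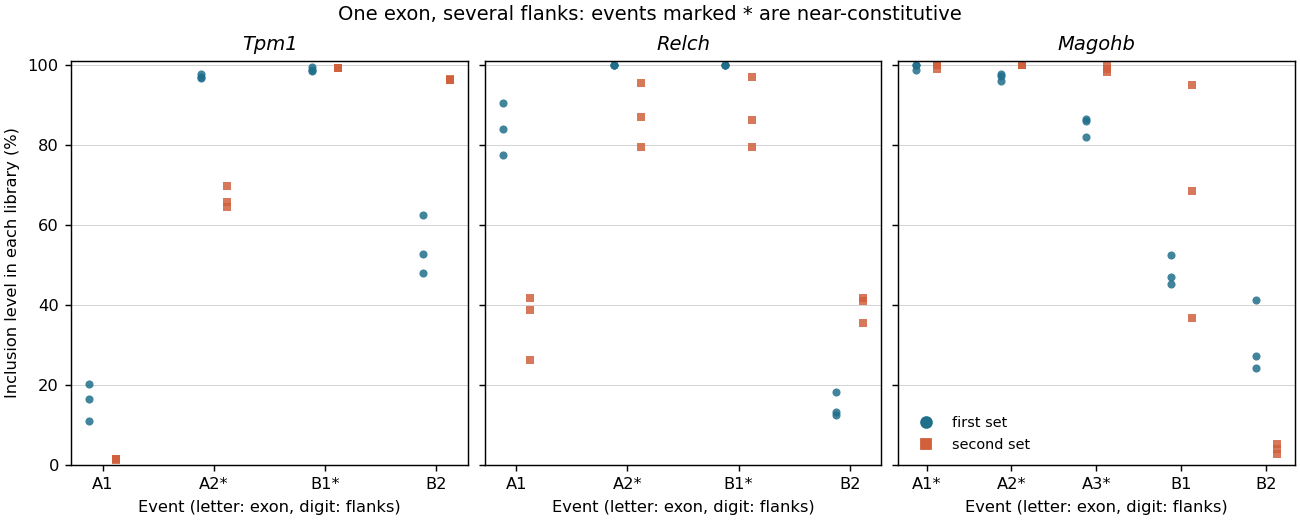
Inclusion level in percent of each library for the exons of Tpm1, Relch and Magohb in each of their events, with first-set and second-set libraries as separate symbols. Tpm1 exon A sits under 21% in one event and over 64% in the other.

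Such double membership was uncommon. Of 24682 unique near-constitutive exons, 723 (2.93%) had another event with enough reads under 90%, and 45 had one at or under 10%. Among the 72 called exons it was 15 (20.8%). Another listed exon lay inside the skipped span in 31 of the 72 called events (43.1%), against 27.7% of near-constitutive events and 27.3% of all events. With no minimum difference, among near-constitutive events with an FDR under 0.05 in the authors' deposited table, it was 141 (28.0%), near the share of the class. In the authors' deposited table of mutually exclusive exons, 60 of 6990 events with a near-constitutive exon were called (0.858%), beside 75 of all 7358 events (1.02%). The called ones held 96 of 8850 near-constitutive exons, 5 of them called here.

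The other large positive differences were mostly small counts. Phkg2, the catalytic subunit of phosphorylase kinase, was better covered and included at 94.0%, 98.8% and 98.5% in the first set and 82.5%, 84.6% and 72.5% in the second. The authors' deposited table gave 0.172 for it, with an FDR of 1.6e-06. Lrrc40 stood at 97.8%, 98.7% and 98.2% against 90.8%, 74.8% and 83.7%. Neither exon overlapped between sets. Sp140, a nuclear body protein of immune cells, stood at 100% in all first-set libraries and 76.1%, 82.2% and 84.8% in the second, on 14 to 48 reads per library. Ppp6r2, a regulatory subunit of protein phosphatase 6, was at 100% in the first set and at 77.1%, 78.1% and 92.9% in the second. Setdb2, a histone methyltransferase family member, was at 100% against 93.6%, 70.3% and 88.7%, and Rgs22 was at 100% against 83.4%, 95.1% and 74.9%. Their first set held no skipping read at all.

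In several of these called exons the sets overlapped or met at 100%. Mindy2, a deubiquitinase, had second-set levels of 100%, 55.6% and 82.5% beside first-set levels of 100%, 100% and 95.8%, so its difference of 0.192 in the authors' deposited table came from 2 libraries. Sfi1, a centrosome protein, had 100% in all 3 first-set libraries and 64.9%, 100% and 91.7% in the second, and 9130230L23Rik likewise had 1 second-set library at 100%. In Hsd17b6, a steroid dehydrogenase, the sets did not overlap, with 100%, 96.1% and 100% against 88.3%, 66.0% and 90.2%. Nor did they in Vps13c, a lipid transfer protein, which had 100%, 91.5% and 100% against 74.9%, 80.2% and 87.8% on as few as 13 reads. Longer forms of the Hsd17b6 and 9130230L23Rik exons, with the same skipping reads, had smaller differences and were not called. In the authors' deposited table the Hsd17b6 exon had 0.172 at 110 nt and 0.064 at 115 nt. The 9130230L23Rik exon had 0.141 at 94 nt and 0.082 at 122 nt.

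On the negative side, Fam135a and Nek1 had more reads than most. Fam135a's 78-nt exon was included at 84.0%, 79.9% and 80.7% in the first set and 96.5%, 98.7% and 100% in the second, and the authors' deposited table gave -0.169 with an FDR of 2.3e-11. Another exon of Fam135a, of 155 nt, had a difference of 0.125 in the authors' deposited table, at 95.1%, 96.8% and 97.1% against 78.2%, 85.8% and 87.4%. With another flank that exon had a pooled inclusion of 86.4%, a difference of 0.010 and an FDR of 1 in the authors' deposited table. Nek1, a kinase of cilia and DNA repair, stood at 69.7%, 77.5% and 91.6% against 100%, 92.8% and 98.7%. Trio, a guanine nucleotide exchange factor, stood at 87.0%, 89.2% and 74.4% against 100% in all 3. Map4k4, a kinase of the STE20 family, stood at 67.2%, 94.3% and 75.1% against 100% in all 3, on 20 to 76 reads per library. In these 5 exons the sets did not overlap.

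Trip13, an ATPase of the spindle checkpoint and meiotic recombination, stood at 79.5%, 75.1% and 92.2% against 100%, 97.4% and 97.4%. Xrcc3, a protein of homologous recombination, stood at 76.3%, 81.6% and 90.6% against 100%, 100% and 93.3%, and Lrrc28 at 81.3%, 82.7% and 81.3% against 100%, 94.0% and 100%. None of these 3 overlapped. The called exons of Trip13, Lrrc28 and Trio were each annotated in the reading frame of a transcript marked for decay. A shorter, wholly coding form of the Trip13 exon, with the same skipping reads, was not called. Its difference was -0.066 in the authors' deposited table. A longer, wholly coding form of the Lrrc28 exon, with the same skipping reads, had -0.214 there. At a pooled inclusion of 87.0%, that form lay outside the class. The largest negative difference in the authors' deposited table, -0.261 in Gtpbp6, a mitochondrial GTPase, came from levels of 43.2%, 100% and 78.4% against 100% in all 3, and the lowest level rested on 8 reads. Ovgp1, Zbtb25 and Arhgap21 also had a first-set library at 100% and so met or passed the second set. Eml4, a microtubule-associated protein, was outside the largest 12 and was picked after its values were seen. Its 33-nt exon, at 84.0%, 86.5% and 85.5% against 95.8%, 99.5% and 96.7%, had a difference of -0.120 in the authors' deposited table.

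**Figure D5:**
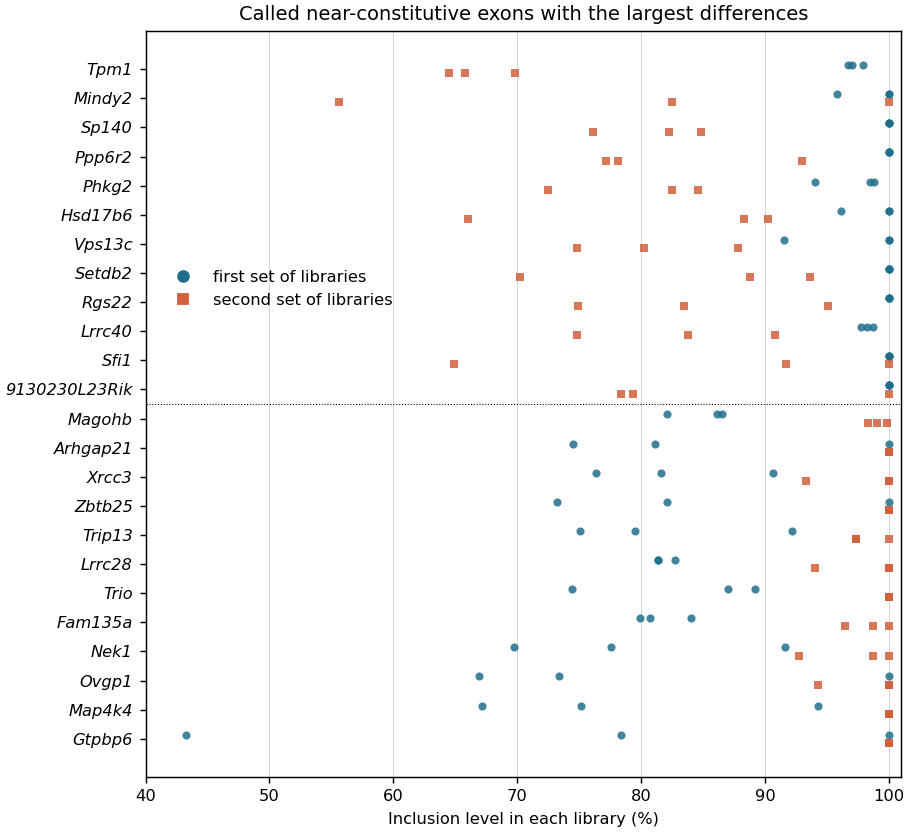
Inclusion level in percent in each of 6 libraries for the 24 called near-constitutive exons with the largest differences, with the first set and the second set as separate symbols. Tpm1 keeps its sets wide apart, whereas Gtpbp6 has 1 library at 43.2% and another at 100% within the first set.

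Membership of the class, and with it the call, often hung on 1 library, while the authors' difference and FDR stayed as deposited. Of the 24 exons with the largest differences, 6 (Tpm1, Setdb2, Map4k4, Gtpbp6, Zbtb25 and Magohb) stayed called whichever library was left out of the membership rule, and 18 were lost in at least 1 case. Phkg2, Sp140, Ppp6r2 and Sfi1 were lost without any 1 of the 3 first-set libraries. The 78-nt exon of Fam135a and those of Nek1, Ovgp1, Trip13, Xrcc3 and Arhgap21 were lost without any 1 of the 3 second-set libraries. Phkg2, Vps13c and Lrrc28, like Tpm1, were also lost with the median of library levels. Over all calls, 55 to 60 of the 72 were shared after leaving out 1 library.

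With deep coverage, much smaller differences passed the FDR. Of the 503 events, 219 had an absolute difference under 0.05 in the authors' deposited table, the smallest being 0.009. Tmc4, a transmembrane channel-like protein, was included at 99.5%, 99.4% and 99.6% in the first set and 97.1%, 96.9% and 96.8% in the second, on 2663 to 3099 reads per library. Dmbt1, a secreted mucosal glycoprotein, was at 98.8% in each first-set library and at 98.0%, 97.7% and 97.0% in the second. Gas5, a non-coding RNA that hosts small nucleolar RNAs, was at 95.1%, 96.1% and 96.0% against 93.5%, 93.7% and 94.3%. Esd, esterase D, was at 98.5%, 98.8% and 98.8% against 97.4%, 98.1% and 97.5%. Their differences in the authors' deposited table were 0.026, 0.012, 0.019 and 0.011.

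The deeply covered negative differences included genes for 2 RNA-binding proteins of the hnRNP A/B family. Hnrnpa3 was included at 94.1%, 96.0% and 95.4% in the first set and 97.1%, 98.1% and 97.3% in the second. A 93-nt exon of Hnrnpa1 stood at 97.2%, 96.3% and 97.1% against 98.1%, 98.5% and 98.4%. Idh3b, a subunit of mitochondrial isocitrate dehydrogenase, stood at 95.8%, 96.9% and 95.7% against 97.7%, 97.6% and 97.4%, and Csrp2 at 98.6%, 97.9% and 98.3% against 99.5% in all 3. None of these 4 overlapped. Chmp2a, a subunit of the membrane-severing ESCRT-III complex, had 1 first-set library at 97.5% above 1 second-set library at 97.4%.

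Genes of 10 pathway lists gave few events past the FDR. Counts are of near-constitutive events with an FDR under 0.05 in the authors' deposited table, beside 1.72% over all near-constitutive events. Among PTB proteins and splicing partners, 3 of 108 events passed (2.78%), 1 positive and 2 negative. In the 44 events of the SR proteins, the 112 of DNA replication and cell cycle genes and the 42 of p53 pathway genes, none passed the FDR, and the numbers at an unadjusted p under 0.05 by the authors' test were 3, 1 and 2. In the spliceosome core 1 of 86 passed, negative, in Prpf3. Among actin, adhesion and junction genes 5 of 231 passed (2.16%), 1 positive and 4 negative, and among clathrin, endocytosis and exocyst genes 5 of 192 (2.6%), all positive. Chromatin regulators gave 1 of 136, translation factors 1 of 119 and intestinal epithelial genes 1 of 145, all positive. The list median difference was 0 in 9 lists and -0.0035 in the p53 pathway, and over all near-constitutive events it was 0.

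The Ptbp1 exon of 34 nt, whose skipping is a known route by which PTBP1 limits its own transcript, was included at 95.9%, 92.9% and 97.2% in the first set and 93.8%, 92.1% and 92.2% in the second. Its pooled inclusion was 93.5%, and 1 library of the first set lay within the range of the second. The authors' deposited table gave 0.026 with an FDR of 0.0206, so it was under the size needed for a call. The same list's other 2 events were both in Hnrnpa1.

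Picalm, a clathrin assembly protein, had a 150-nt exon at 94.1%, 94.9% and 96.1% in the first set and 84.5%, 85.8% and 86.4% in the second. The sets did not overlap on 1136 to 1536 reads, and the difference in the authors' deposited table was 0.095, just under the size for a call. Epn1, epsin 1 of clathrin-coated pits, stood at 96.3%, 95.8% and 96.8% against 91.7%, 88.3% and 89.0% in its best event, and 3 of the list's 5 events were the same 104-nt exon with other flanks. Sbf2, a myotubularin-family protein, stood at 98.2%, 100% and 98.3% against 100%, 88.6% and 90.5%, with overlap.

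In the actin list, Actn4, an actin cross-linker, had an 86-nt exon at 88.1%, 89.4% and 88.6% in the first set and 97.8%, 100% and 97.4% in the second, with -0.097 in the authors' deposited table. Myo6, a myosin that moves towards the minus end of actin, had a 39-nt exon at 85.2%, 89.1% and 85.6% against 94.5%, 95.3% and 94.6%. Numb, an endocytic adaptor that restrains Notch signalling, had a 147-nt exon at 95.2%, 94.0% and 95.7% against 100%, 98.3% and 97.3%. None of the 3 overlapped. Eif4g2, an initiation factor without cap binding, stood at 90.3%, 91.2% and 94.2% against 88.3%, 90.4% and 86.6%, and Eed, a Polycomb repressive complex subunit, at 99.4%, 100% and 100% against 96.8%, 98.1% and 96.1%. Prpf3, a component of the U4/U6 snRNP, stood at 97.2%, 87.6% and 99.3% against 100%, 100% and 98.1%. In Eif4g2 and Prpf3 the sets overlapped, and in Eed they did not.

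Features of the called exons differed by sign, in small numbers and with no test. TCTT occurred in 19 of 37 exons with a positive difference (51.4%) and in 9 of 35 with a negative one (25.7%), against 37.3% of near-constitutive exons. Lengths were a multiple of 3 in 11 of the 37 (29.7%) and 20 of the 35 (57.1%), against 38.1%. The skipping junction was annotated in 8 of the 37 (21.6%) and 15 of the 35 (42.9%). It was annotated in 13.4% of near-constitutive events, and in 43.7% of those with an FDR under 0.05 in the authors' deposited table. Which events are called, and so each of these counts, depends on the same membership rule as the split above. The median distance to the upstream flank of the event was 2577 nt for positive and 3624 nt for negative differences, against 1885 nt for near-constitutive events. The median distance to the downstream flank was 1206 nt for positive and 4057 nt for negative differences, against 1660 nt. Such a distance is not always 1 intron. Another listed exon lay inside the skipped span in 43.1% of called events and 27.7% of near-constitutive events.

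Few host genes of these exons differed between WT and PTBP1_KO in the authors' deposited gene table. Of 8077 tested genes with a near-constitutive event, 31 had q under 0.05 (0.384%), against 83 of all 15460 tested genes (0.537%). Among 69 tested genes with a called event, 1 had q under 0.05 (1.45%), namely Tpm1. Among 429 with an event under the FDR threshold, 2 did (0.466%), namely Tpm1 and Ptbp1. Median levels were 18.1 FPKM in WT and 18.2 FPKM in PTBP1_KO for genes with a near-constitutive event, and 10.7 and 10.5 FPKM for genes with a called one. The gene table holds 1 value per group, so no spread can be given.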

How the data were processed

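Libraries were 3 WT and 3 PTBP1_KO. Per the submitters' processing notes, bcl2fastq 2.20, Trimmomatic 0.38, STAR 2.6.1d, Cufflinks, Cuffdiff and mm10 were used; the version of the splicing caller is not given in the sources used here. The 5 deposited splicing tables hold read counts, effective lengths, a p-value and FDR, and an inclusion level difference by the authors, per the file headers. The deposited gene table holds the authors' FPKM, log2 fold change and q-value per gene, 1 value a group. Library levels were recomputed here from the counts and effective lengths, and 10 columns of per-library levels were not used. The deposited difference equals the mean of the first set minus that of the second, and the FDR is a Benjamini-Hochberg adjustment over the whole table. A planned model by genotype was not run because the columns do not name samples. Genes were named as the largest 12 differences of each sign, the 5 best-covered smaller ones of each sign, the 3 nearest either side of the threshold, and list genes with FDR under 0.05. One event that this rule names is not reported here. Members and lists were chosen with earlier results of these data known. Of 10244 gene IDs, 10006 (97.7%) matched GENCODE M21. Sequences of introns and splice sites were not analysed here. The scripts ran under Python 3.11.15 with pandas 2.3.3, numpy 2.4.6, matplotlib 3.10.9 and scipy 1.17.1, and were tested on simulated data.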

Additional observations from a re-analysis of the deposited data

How the results depend on the processing

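The number of near-constitutive events (29217) lay between 26674 and 30133, and the share of multiples of 3 between 38.0% and 38.2%, under every alternative run. The 72 calls became 56 at an FDR under 0.01 and 73 at a mean of 10 reads. They became 284 at a difference of 0.05, 3 at 0.2, 503 with no minimum, 38 at a mean of 50 reads, 148 at a pooled inclusion of 85%, 1 at 95%, 112 with the median of library levels, and 45 where the sets had to be apart, which was added after seeing the data. Positive calls (37) became 144, 1, 268, 21, 75, 1 and 23 in the same order without the median, which gave 51. Leaving out 1 library in membership gave 67 to 78 calls and 22 to 50 positive ones. Of the 72 calls, 55 to 60 were shared in each case, and 7 to 9 of the 24 largest named calls were lost. Of the 24 largest named calls, 13 were lost at a mean of 50 reads, 7 where sets had to be apart and all 24 at 95%. Exons with few reads limit the precision of single levels. No paired analysis was possible because the columns carry no replicate numbers or genotypes.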
